A study of Homo sapiens with 15 samples.

Results

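AKTmyr is a transformed derivative of the established human cell line ARPE19, which comes from retinal pigment epithelium, and it carries a membrane-bound form of the kinase AKT. It was compared here with T53D4, the derivative that lacks it. The comparison was defined by the sample labels alone, as 3 AKTmyr libraries against 3 T53D4 libraries, and so uses 6 of the 15 libraries of the series. Per the labels, T53D4 carries the plasmid pbabe-hTERT+p53DD (telomerase and a dominant negative p53 fragment) and the plasmid pbabe-cyclinD1+CDK4R24C (cyclin D1 and a CDK4 mutant). AKTmyr carries those plasmids and in addition pBabe-myr-HA-Akt. The labels assign AKTmyr to the PI3K-AKT pathway and call it transformed, and they call T53D4 a primed line that is not transformed. By their labels, RasV12 and MekDD, named below where AKTmyr is set against them, carry the first pair of plasmids plus H-RasV12 or MEK-DD, and ARPE19 without plasmids is the parent. There is 1 line per construct, and each replicate came from its own thawed vial passaged 2 times, so the p-values compare these lines over vials and not over independently made lines.

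AKT is the kinase that insulin and growth factor receptors reach through PI3K, whose lipid product recruits AKT to the plasma membrane, where it is switched on. A myristoyl tag anchors AKT at the membrane and so bypasses receptor and PI3K. Active AKT phosphorylates FOXO transcription factors and keeps them out of the nucleus, relieves the brake on mTORC1, and is known for raising glucose uptake and glycolysis.

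Poly(A) RNA was sequenced with a directional kit, and reads counted on genes ran from 20.63 to 46.55 M reads over the series' libraries. Levels are given as CPM, the deposited counts scaled to library size with trimmed-mean factors, in the order of replicates 1, 2 and 3. Both lines held the epithelial keratins KRT8 (886 to 1348 CPM over the 6 libraries) and KRT18, and the pigment epithelial regulators MITF and OTX2. RPE65, the visual cycle isomerase of mature pigment epithelium, had 12 reads over the AKTmyr libraries and 0 over T53D4. The genes CDK4, CCND1, PIK3CD, PIK3R3, EGLN3, CA9, ETV4 and NOP16 overlap another annotated gene, and the strand setting of the counting is not given in the sources used here, so their reads cannot be told apart from their partners'. Among markers of other cell types in the table, 3 of 4 leukocyte markers (PTPRC, CD14, LYZ), 3 of 4 endothelial markers (PECAM1, CDH5, VWF), 4 of 5 neuron or glia markers (RBFOX3, SYP, GFAP, SOX10) and both muscle markers (MYH3, TNNT2) were under 1 CPM in each of the 6 libraries. The others were CD68, listed for leukocytes, at 114 to 162 CPM in AKTmyr and 84 to 181 CPM in T53D4, KDR, listed for endothelium, at 0.595 to 0.838 and 1.03 to 1.52 CPM, and MBP, listed for neurons or glia, at 50.1 to 64.2 and 57.3 to 101.5 CPM. The part of those cell types in the results was not tested. The summed level of the 11 pigment epithelium markers in the table was 1333 to 2032 CPM in AKTmyr and 1584 to 1943 CPM in T53D4, and that of 5 mesenchymal markers 8820 to 11271 and 8587 to 10888 CPM, so both sums overlapped. KRT8 and KRT18 made up most of the first sum (means of 1063 and 354 CPM in AKTmyr) and VIM most of the second (8401 CPM). The overlap therefore says little of the other markers. PMEL (2.29 to 2.81 against 5.95 to 8.73 CPM) and SERPINF1 (1.62 to 2.82 against 6.95 to 9 CPM) were lower in AKTmyr without overlap. OTX2 (86.3 to 109.7 against 44.2 to 79.2 CPM) and RPE65 were higher without overlap.

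The construct rows were read first, since they check the labels. The row of the AKT construct, named MYR_FLAG_AKT in the count table although the label gives an HA tag, held 543, 774 and 1201 CPM in AKTmyr and 133, 101 and 117 CPM in T53D4. All AKTmyr libraries lay above all T53D4 libraries, and the 4 lines without this construct had means of 104 to 118 CPM on the row. The difference was 2.82 on the log2 scale (SE 0.23, edgeR adjusted p = 9.5e-06, from its quasi-likelihood test with Benjamini-Hochberg adjustment). Telomerase and p53DD constructs were present in both lines, at 633 ± 175 against 879 ± 147 CPM and at 58.4 ± 20.1 against 70.7 ± 20.1 CPM (mean ± SD, n = 3), differences that were not called.

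The cyclin D1 and CDK4R24C constructs went against the label of T53D4. The cyclin D1 row held 732, 845 and 996 CPM in AKTmyr against 174, 111 and 153 CPM in the libraries labelled T53D4, and the parent without plasmids had a mean of 193 CPM. The CDK4R24C row held 935, 975 and 1107 CPM in AKTmyr against 88.7, 82.6 and 105 CPM in the libraries labelled T53D4, with a parental mean of 70.7 CPM. AKTmyr therefore exceeded T53D4 by 2.56 (SE 0.22, edgeR adjusted p = 1.6e-05) and 3.45 (SE 0.12, edgeR adjusted p = 8.97e-09) on the log2 scale for these as well. MekDD was likewise low on these rows for its label, with means of 269.5 CPM for cyclin D1 and 142 CPM for CDK4R24C, whereas RasV12 had 2350 and 2380 CPM. AKTmyr exceeded the libraries labelled MekDD by 1.67 (SE 0.22) and 2.82 (SE 0.12) and lay below RasV12 by 1.45 (SE 0.22) and 1.25 (SE 0.11) on these rows, so comparisons with those lines also span cyclin D1 and CDK4 levels. Every difference from T53D4 below spans membrane-bound AKT together with these cyclin D1 and CDK4 levels, and their parts cannot be told apart.

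**Figure D1:**
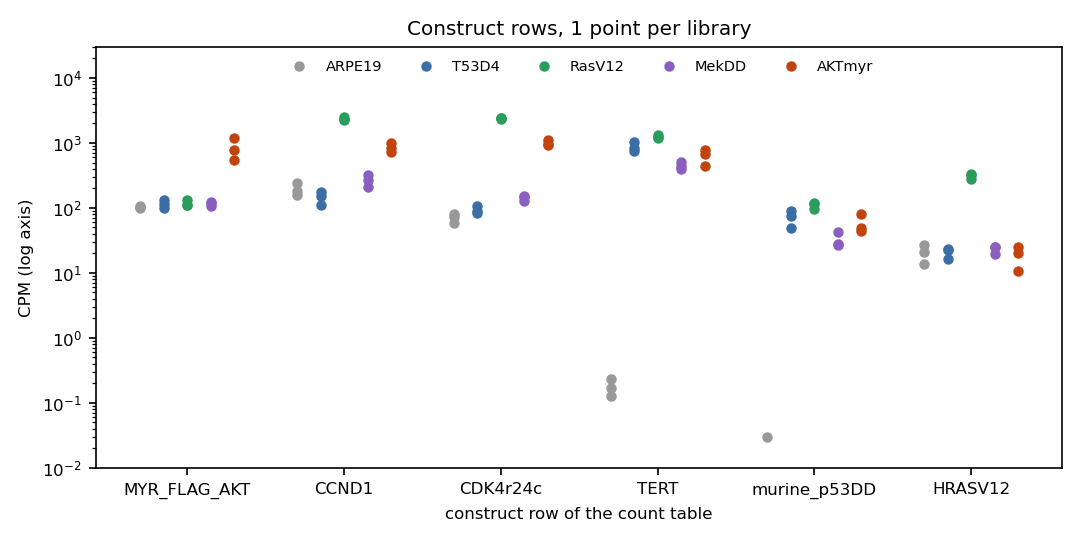
Level of 6 construct rows of the count table, in CPM on a log axis, with 1 point per library for each of the 5 lines. AKTmyr stood above T53D4 on the AKT, cyclin D1 and CDK4R24C rows (means of 840 and 117 CPM for the first), and a library with no read on a row is not drawn.

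Of 13599 genes tested, 2304 rose in AKTmyr (16.9%) and 2434 fell (17.9%) at an adjusted p under 0.05. The fit held all 15 libraries, with the line and the replicate number as factors. Without the replicate number 1347 rose (9.91%) and 1391 fell (10.2%), and 2737 of these 2738 calls were also calls of the fit with it. Changes of at least 2-fold were called for 758 genes upward (5.57%) and 570 downward (4.19%), and of at least 4-fold for 264 (1.94%) and 199 (1.46%). The 3 AKTmyr and 3 T53D4 libraries did not overlap for 2309 genes that were higher (17%) and 2519 that were lower (18.5%). Leaving out AKTmyr replicate 1 took the count that fell to 1446. In RNA from whole cultures, a change in the share of cells that make a transcript and a change in the amount per cell cannot be told apart.

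AKT and its upstream enzymes came first. AKT1 stood at 659, 859 and 1297 CPM in AKTmyr and at 278, 211 and 232 CPM in T53D4 (chr14:104769349-104795751, hg38, minus strand). The AKTmyr libraries were all higher, replicate 3 the most, and the log2 difference was 1.96 (SE 0.20, edgeR adjusted p = 4.3e-05), in a row that may include reads of the construct. The ratio of the construct row to the gene row was 0.884 in AKTmyr and 0.487 to 0.507 in the other lines. The construct row held 543, 774 and 1201 CPM in AKTmyr against 133, 101 and 117 CPM in T53D4. The AKT1 row therefore does not show whether the native gene changed. AKT2, another AKT gene (153, 153 and 148 CPM against 168, 136 and 161), overlapped between the lines and was not called.

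Among the enzymes that make the lipid signal, the subunits moved in different directions. PIK3R3, a regulatory subunit of class I PI3K, held 32.9, 33.7 and 34.8 CPM in AKTmyr and 3.12, 4.66 and 3.57 CPM in T53D4 (chr1:46040140-46133036). Its libraries were tightly grouped in each line with no overlap, a 9.02-fold rise (log2 3.17, SE 0.21, edgeR adjusted p = 2.1e-06). PIK3R1, the main regulatory subunit, held 136, 113 and 104 CPM against 49.5, 67.3 and 58.6 CPM, again without overlap (log2 1.02, SE 0.20, edgeR adjusted p = 0.0025). The catalytic subunit gene PIK3CB rose by 0.62 (SE 0.11) and the class II enzyme PIK3C2B by 1.48 (SE 0.29) on the log2 scale. PIK3CD, the catalytic subunit best known from leukocytes, fell by 1.19 (SE 0.19), from 41.3, 29.8 and 27.6 CPM to 13.5, 17 and 12.25 CPM. PIK3CA, a widely expressed catalytic subunit, was at 22.6, 24.1 and 26.6 CPM against 21, 29.5 and 25.1 CPM and was not called.

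Genes that restrain the pathway were also split. DDIT4, the stress-induced inhibitor of mTORC1, stood at 1094, 1026 and 939 CPM against 400, 152 and 194 CPM, a 4.3-fold rise (SE 0.27 on the log2 scale, edgeR adjusted p = 0.00017). The phosphatase gene PHLPP1, whose product dephosphorylates AKT, fell by 1.08 (SE 0.15), from 65, 108 and 132 CPM to 34.1, 54.3 and 54.4 CPM. INPP4B, a phosphatase of a PI3K lipid, fell by 0.70 (SE 0.18), a call that was lost without the replicate number (adjusted p = 0.064) and without T53D4 replicate 3 (adjusted p = 0.0598). MTOR, RICTOR, TSC2 and RHEB, core parts of the mTOR branch, had log2 differences between -0.13 and 0.22 and were not called.

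Over the whole list of 42 tested PI3K, AKT and mTOR genes, 8 rose and 7 fell, with a median log2 difference of 0.01 beside -0.0133 for all genes. That share of calls (35.7%) was near the 34.8% of all genes. Without the replicate number 8 rose and 3 fell, and 4 fell when either T53D4 replicate 1 or T53D4 replicate 3 was left out.

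**Figure D2:**
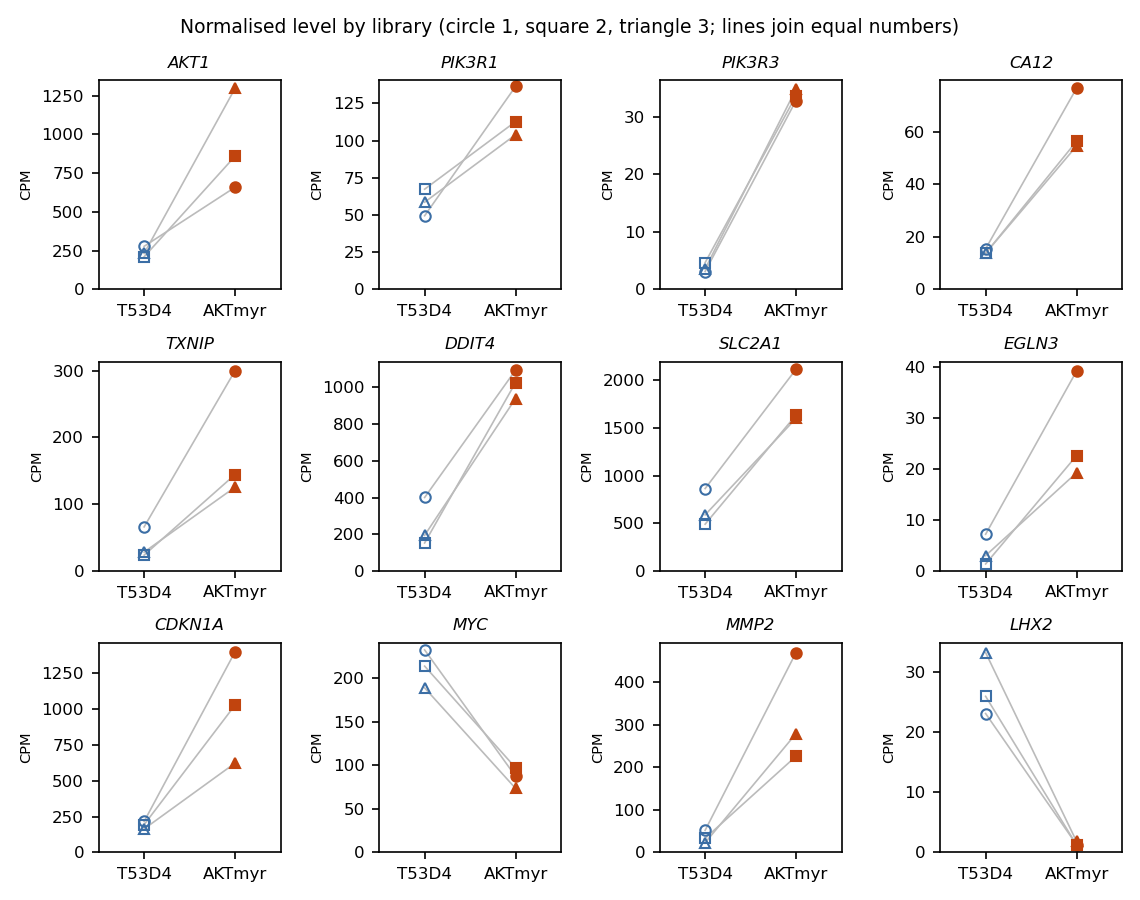
Level in CPM of 12 genes in the 3 T53D4 and 3 AKTmyr libraries, each panel with its own axis from 0 and lines joining libraries of the same replicate number. The groups were apart in each panel: MYC and LHX2 were lower in AKTmyr, and the other 10 genes were higher. The AKT1 row may include reads of the construct.

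Receptors and ligands that feed the pathway were measured next. INSR, the insulin receptor, was lower in AKTmyr at 25.8, 27 and 22.7 CPM against 40.1, 40.6 and 46.8 CPM. The groups were apart, with a fall of 0.74 on the log2 scale (SE 0.17, edgeR adjusted p = 0.0054). IRS1, IRS2, IGF1R and ERBB3, which relay insulin, IGF or neuregulin signals, overlapped between the lines and were not called, with log2 differences from -0.17 to -0.10. IGF1, the secreted ligand of the IGF1 receptor, had 4.59, 3.17 and 13.6 CPM in AKTmyr and no read in T53D4, so it was at least 193-fold higher (floor of 3 reads over the T53D4 libraries, edgeR adjusted p = 6.8e-05). It had no read in ARPE19 or MekDD either and a mean of 0.0351 CPM in RasV12.

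Some other growth factor genes were lower. FGF7, a ligand of epithelial FGF receptors, had 0, 0.0881 and 0.0417 CPM in AKTmyr and 1.16, 1.35 and 2.14 CPM in T53D4, and fell by 4.88 (SE 1.03, edgeR adjusted p = 0.0038). ALKAL2, a ligand of the ALK receptor, fell by 4.50 (SE 0.34), from 10, 2.99 and 2.38 CPM to 0.378, 0.22 and 0.0417 CPM. PDGFB fell by 2.87 (SE 0.34), from 72.7, 15.3 and 10.5 CPM to 8.81, 2.22 and 1.5 CPM, and its lines did not overlap although replicate 1 was the highest library of each. Of 47 insulin, IGF and receptor tyrosine kinase genes, 8 rose and 10 fell (median -0.14), a share of 38.3% near the 34.8% called among all genes. These counts were 5 and 6 without the replicate number, 5 and 7 without T53D4 replicate 1, 4 and 8 without T53D4 replicate 3, and 5 and 12 without AKTmyr replicate 3.

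FOXO1, the FOXO factor best known from insulin action, held 29.2, 28.5 and 25.3 CPM in AKTmyr against 13.3, 16.6 and 12.8 CPM in T53D4. It rose by 0.96 (SE 0.16, edgeR adjusted p = 0.0011), with no overlap, whereas FOXO3 was at 117, 99.2 and 96.5 CPM against 110, 90.5 and 100 CPM and was not called. TXNIP, an inhibitor of glucose uptake and of thioredoxin whose transcription is driven by glucose and by FOXO factors, held 300, 144 and 125 CPM against 65.9, 23.7 and 28.1 CPM. Replicate 1 was the highest library of each line, and within every replicate number AKTmyr was higher (5.06-fold, log2 2.34, SE 0.27, edgeR adjusted p = 9.7e-05).

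SESN3, a sestrin that dampens mTORC1, rose by 1.48 (SE 0.28), as did SESN1 by 0.68 (SE 0.15) and the peroxide-clearing enzyme CAT by 0.68 (SE 0.13). GADD45A, a stress sensor of the cell cycle, fell by 0.73 (SE 0.15) and the zinc finger factor KLF6 by 0.73 (SE 0.15). Of 30 tested FOXO factors and targets, 8 rose and 5 fell (median 0.05), or 43.3% called beside 34.8% of all genes, of which 16.9% rose and 17.9% fell. These counts were 5 and 3 without the replicate number and 6 and 3 without T53D4 replicate 3.

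Genes of glycolysis and the hypoxia response rose together. Of 38 tested, 30 rose and 0 fell (0 also at an unadjusted p under 0.05 and by DESeq2), with a median log2 difference of 0.98 against -0.0133 for all genes, and all 38 estimates were positive. On this list 78.9% were called, beside 34.8% of all genes, of which 16.9% rose. This and the other lists were chosen with earlier results of these data known, so their shares are not independent support. The shift was uneven, with a median of 0.36 within replicate number 1, 1.39 within number 2 and 1.02 within number 3. Without the replicate number 17 rose and 0 fell, and 21 to 29 rose when any 1 of the 6 libraries was left out. SLC2A1, the glucose transporter GLUT1, held 2116, 1636 and 1601 CPM in AKTmyr and 864, 490 and 588 CPM in T53D4 (chr1:42925375-42958868). It rose 2.81-fold (log2 1.49, SE 0.13, edgeR adjusted p = 1.8e-05) with the groups far apart.

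Enzymes along the pathway rose as well. HK2, the hexokinase that traps glucose in the cell, held 115, 139 and 201 CPM against 91.2, 38 and 70.4 CPM (log2 1.26, SE 0.28, edgeR adjusted p = 0.0047). GAPDH held 11470, 9521 and 8744 CPM against 5768, 4685 and 4679 CPM, without overlap (log2 0.97, SE 0.13, edgeR adjusted p = 0.00019). ALDOC, an aldolase, held 246, 97.7 and 115 CPM against 70.5, 27.1 and 33.3 CPM (log2 1.81, SE 0.22). Replicate 1 was again the highest library in both lines, and AKTmyr was higher within each number.

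PGK1, which makes ATP in lower glycolysis, rose by 1.18 (SE 0.23). PFKFB3 and PFKFB4, which make the activator of phosphofructokinase, rose by 1.43 (SE 0.28) and 1.63 (SE 0.32), the latter not called without the replicate number (adjusted p = 0.055). LDHA, which turns pyruvate into lactate, held 3215, 3718 and 5468 CPM against 2684, 1140 and 2320 CPM, and rose by 1.09 (SE 0.31, edgeR adjusted p = 0.018). The lines did not overlap, but the call was lost without the replicate number (adjusted p = 0.066) and without T53D4 replicate 2, AKTmyr replicate 2 or AKTmyr replicate 3, where the adjusted p was 0.0645 to 0.0866. HK1, PFKM, PFKL and ENO1 were not called, and ENO1 overlapped at 3817, 4813 and 5291 CPM against 4608, 2639 and 3888 CPM.

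Known targets of the hypoxia-inducible factors on the list rose as well. EGLN3, an oxygen-sensing prolyl hydroxylase, held 39.2, 22.6 and 19.25 CPM in AKTmyr and 7.19, 1.37 and 3 CPM in T53D4, an 8.22-fold rise (log2 3.04, SE 0.27, edgeR adjusted p = 1.7e-05). CA12, a carbonic anhydrase of the cell surface, held 76.7, 56.5 and 54.6 CPM against 15.5, 13.75 and 13.8 CPM (log2 2.12, SE 0.22). VEGFA, the endothelial growth factor that pigment epithelium secretes, held 925, 502 and 466 CPM against 330, 103 and 97.4 CPM (log2 2.00, SE 0.30, edgeR adjusted p = 0.00044). The AKTmyr libraries of these genes all lay above those of T53D4.

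CA9, the tumour-associated carbonic anhydrase, was at 480, 187 and 306 CPM against 229, 17.75 and 60.9 CPM. T53D4 replicate 1 was above AKTmyr replicate 2, so the lines overlapped, and the rise of 2.31 (SE 0.52, edgeR adjusted p = 0.0053) was not called without the replicate number (adjusted p = 0.28). Of the factors themselves, EPAS1, which encodes HIF-2 alpha, rose by 1.31 (SE 0.17), with 311, 600 and 417 CPM against 128, 226 and 179 CPM. HIF1A was at 1099, 1014 and 1055 CPM against 967, 934 and 952 CPM, without overlap, and its log2 difference of 0.15 (SE 0.13) was not called (edgeR adjusted p = 0.377).

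**Figure D3:**
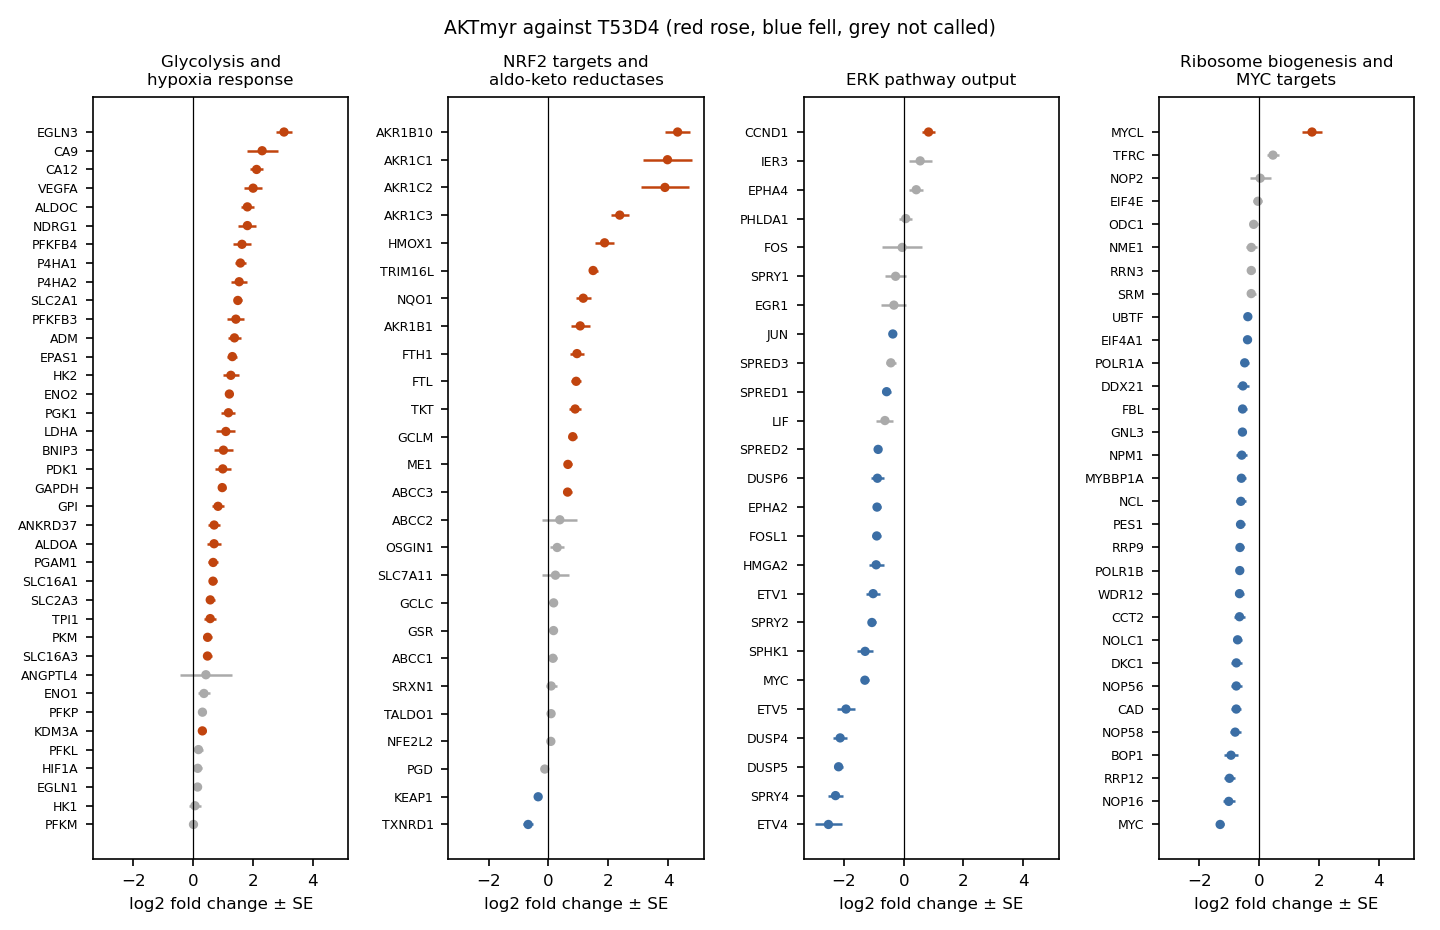
Log2 fold change of AKTmyr over T53D4 with its SE for tested members of 4 gene lists (1 member of the second list is not drawn), sorted within each list, with called rises in red, called falls in blue and the rest in grey. The first list has 30 called rises and 0 called falls, and the third has 16 called falls and 1 called rise.

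Promoters are shown for genes of the lists in which most members moved the same way, and for the FOXO target TXNIP, so that a reader can see the letters searched. Each is the RefSeq sequence of 300 bases (GRCh38.p14), 250 before to 50 after the annotated start, 5′ to 3′ on the gene's strand. Capitals mark the FOXO core GTAAACA in TXNIP (chr1:145996530-145996829, minus strand) and the E-box CACGTG in LDHA (chr11:18394313-18394612, plus strand), GAPDH (chr12:6535014-6535313, plus strand) and RRP9 (chr3:51941855-51942154, minus strand), a ribosomal RNA processing gene that fell.
TXNIP: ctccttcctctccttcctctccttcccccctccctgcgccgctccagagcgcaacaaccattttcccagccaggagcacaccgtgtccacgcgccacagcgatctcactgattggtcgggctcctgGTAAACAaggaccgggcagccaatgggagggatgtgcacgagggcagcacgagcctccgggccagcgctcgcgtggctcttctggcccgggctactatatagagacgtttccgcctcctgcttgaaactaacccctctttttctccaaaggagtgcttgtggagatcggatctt
LDHA: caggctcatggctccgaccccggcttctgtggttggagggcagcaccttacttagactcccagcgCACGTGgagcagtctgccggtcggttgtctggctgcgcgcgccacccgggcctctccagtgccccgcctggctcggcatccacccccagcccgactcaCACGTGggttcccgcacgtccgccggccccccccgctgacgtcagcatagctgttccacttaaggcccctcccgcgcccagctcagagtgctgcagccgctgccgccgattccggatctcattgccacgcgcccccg
GAPDH: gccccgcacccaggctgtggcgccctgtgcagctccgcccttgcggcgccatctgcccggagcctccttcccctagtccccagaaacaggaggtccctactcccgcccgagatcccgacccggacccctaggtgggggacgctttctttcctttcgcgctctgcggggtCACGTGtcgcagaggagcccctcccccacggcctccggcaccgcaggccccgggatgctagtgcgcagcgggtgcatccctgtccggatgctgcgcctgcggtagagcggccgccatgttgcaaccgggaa
RRP9: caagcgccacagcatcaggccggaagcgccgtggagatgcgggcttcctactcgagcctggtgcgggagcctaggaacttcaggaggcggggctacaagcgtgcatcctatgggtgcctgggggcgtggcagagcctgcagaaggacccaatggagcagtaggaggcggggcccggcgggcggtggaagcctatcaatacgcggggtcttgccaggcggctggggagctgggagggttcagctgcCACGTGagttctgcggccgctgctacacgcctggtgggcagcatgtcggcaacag

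The FOXO core in TXNIP begins 124 bases before the start, and the E-boxes in LDHA begin 185 and 87 bases before it. Both strands were searched in 10998 tested genes that matched a promoter by name. The FOXO core stood in 2.28% of those promoters, in 1.97% of the genes that rose and in 2.17% of those that fell, and in 4 of 27 promoters of the FOXO list, those of TXNIP, HBP1, BCL2L11 and FOXO4, of which TXNIP was called. The E-box stood in 9.86% of all, in 9.11% of genes that rose and in 12.4% of genes that fell. It stood in 5 of 34 promoters of the glycolysis list and in 8 of 26 of the ribosome biogenesis list. Of those 8 genes PES1, FBL, RRP9 and MYBBP1A were called lower and the rest were not called, while 23 of 31 fell in the whole list. The lysosome and autophagy list, in which 7 of 40 tested members rose and 6 fell, also had the E-box in 8 of 26 promoters. A link between the E-box and the changes was not tested. The FBL and MYBBP1A calls were lost without AKTmyr replicate 1 (adjusted p = 0.106 and 0.07) or T53D4 replicate 1 (0.0913 and 0.0594), and that of FBL also without AKTmyr replicate 2 (0.0573) and without the replicate number (0.0716). Letters alone do not show that a factor binds there.

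Genes of the antioxidant response driven by the factor NRF2 formed another list with many rises. Of 27 tested members, 15 rose and 2 fell (median 0.64), with 13 and 1 without the replicate number and 14 or 15 rising when any 1 library was left out. With all libraries 63% of members were called, beside 34.8% of all genes, of which 16.9% rose. AKR1C3, an aldo-keto reductase of steroid and prostaglandin metabolism, held 30.4, 16.3 and 19.1 CPM against 2.7, 4.82 and 5.14 CPM (log2 2.38, SE 0.30, edgeR adjusted p = 0.00016). AKR1B10, a reductase of retinal and other aldehydes, had 1.76, 5.13 and 6.96 CPM against 0, 0.325 and 0.429 CPM (20-fold, log2 4.32, SE 0.42). The lines did not overlap for either gene. AKR1C1 and AKR1C2 are near-identical copies whose reads may be split between them. They had 40 and 22 reads over AKTmyr against 2 and 1 over T53D4, ratios of 18.1 (95% exact binomial interval 4.69 to 155) and 19.9 (3.22 to 822), intervals that cover counting error only.

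HMOX1, which breaks down heme, rose by 1.88 (SE 0.32), with 64.3, 137 and 141 CPM against 28, 39.2 and 25.9 CPM. NQO1, a quinone reductase, rose by 1.16 (SE 0.24), with 447, 780 and 744 CPM against 176, 405 and 317 CPM. The ferritin chains FTH1 and FTL, which store iron, rose by 0.95 (SE 0.23) and 0.93 (SE 0.16). TKT, an enzyme of the pentose phosphate branch of glucose use, rose by 0.89 (SE 0.20). TXNRD1, thioredoxin reductase, with overlapping lines, fell by 0.68 (SE 0.17), a call that was lost without the replicate number (adjusted p = 0.11) and without AKTmyr replicate 1 (adjusted p = 0.0517). NFE2L2, which encodes NRF2, had a log2 difference of 0.08 (SE 0.08) and was not called.

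GSTA1, a glutathione transferase of detoxification, held 74.2, 10 and 2.92 CPM in AKTmyr against 1.16, 0.152 and 0.0952 CPM in T53D4. Levels varied widely between vials of one line, yet AKTmyr was higher within each replicate number, and the fitted difference was 5.90 (SE 0.28, edgeR adjusted p = 1.1e-06). Reads of the near-identical GSTA2 may be split with it. Metallothioneins, small metal-binding proteins encoded by near-identical genes, moved apart: MT1X rose by 2.64 (SE 0.33) while MT1E fell by 1.64 (SE 0.28), and MT1M had 1 read over the AKTmyr libraries, a ratio of 69.6 in favour of T53D4 (95% exact binomial interval 12 to 2793).

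Output genes of the ERK pathway, which are transcribed when RAS, RAF and MEK are active, were mostly lower in AKTmyr. Of 25 tested, 16 fell and 1 rose (median -0.88), with the same counts without the replicate number and 13 to 16 falling when any 1 library was left out. Calls made up 68% of this list, beside 34.8% of all genes, of which 17.9% fell. The rise was CCND1, which shares reads with the cyclin D1 construct, and it was not called without T53D4 replicate 2 (adjusted p = 0.0569). SPRY4, a feedback inhibitor of receptor signalling, had 0.541, 0.771 and 0.333 CPM in AKTmyr and 4.31, 2.56 and 1.57 CPM in T53D4, and fell by 2.28 (SE 0.26, edgeR adjusted p = 8.9e-05). DUSP6, the phosphatase that inactivates ERK, was at 4, 3.15 and 4.33 CPM against 8.15, 6.27 and 6.57 CPM (fell by 0.88, SE 0.21, edgeR adjusted p = 0.0066). Neither gene overlapped between the lines, though the DUSP6 call was lost without replicate 1 of every line (adjusted p = 0.0685).

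DUSP5 and DUSP4, nuclear phosphatases of ERK, fell by 2.18 (SE 0.16) and 2.13 (SE 0.24). DUSP5 had 6.73, 10.1 and 12.1 CPM in AKTmyr against 32.1, 48.8 and 49.3 CPM in T53D4, and DUSP4 had 9.67, 12.5 and 18.9 CPM against 41, 62.7 and 75.6 CPM. The ETS factors ETV4 and ETV5, direct readouts of the pathway, fell by 2.52 (SE 0.44) and 1.93 (SE 0.29), and ETV1 by 1.02. FOSL1, an AP-1 subunit, fell by 0.90 (SE 0.16) and EPHA2, an ephrin receptor, by 0.89 (SE 0.15). The immediate early genes EGR1 and FOS, which answer to fresh stimulation, overlapped between the lines and were not called. Among ligands of the EGF receptor family, HBEGF fell by 1.46 (SE 0.26) and NRG2 by 1.40 (SE 0.28), while EGF rose by 1.14 (SE 0.22) and BTC by 0.76 (SE 0.20). These were 4 calls among 7 tested ligands (57.1%, beside 34.8% of all genes). The BTC call was lost without T53D4 replicate 1 (adjusted p = 0.0591).

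The RasV12 and MekDD lines carry constructs that drive ERK, and AKTmyr differed from both on these genes. Of all genes, 52.7% were called against RasV12, 40.3% against MekDD and 29.6% against ARPE19, with 26.3%, 20.3% and 15.2% lower in AKTmyr and 26.4%, 20% and 14.4% higher, and these comparisons share the AKTmyr libraries. The libraries labelled MekDD are those that were low on the cyclin D1 and CDK4R24C rows. DUSP6 averaged 351 CPM in RasV12 (302 to 403) and 84.6 CPM in MekDD (71.8 to 96.8), and AKTmyr was lower by 6.53 (SE 0.23) and 4.48 (SE 0.21) on the log2 scale (edgeR adjusted p = 4.8e-09 and 1.2e-07). SPRY4 averaged 111 and 31 CPM in those lines, and ETV4 23.9 and 11 CPM. AKTmyr also lay below the ARPE19 parent, by 1.19 (SE 0.20) for DUSP6, 2.45 (SE 0.26) for SPRY4 and 3.03 (SE 0.25) for DUSP4 (edgeR adjusted p = 0.0012, 4.6e-05 and 9.5e-06).

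Several PI3K and glucose genes were higher in AKTmyr than in every other line. SLC2A1 averaged 872 CPM in ARPE19, 407 CPM in RasV12 and 769 CPM in MekDD, so that AKTmyr was higher by 1.04 (SE 0.13), 2.16 (SE 0.14) and 1.25 (SE 0.13). PIK3R3 averaged 4.24, 4.25 and 3.84 CPM in the same order, and AKTmyr was higher by 3.01 (SE 0.20), 3.01 (SE 0.21) and 3.19 (SE 0.21). All 6 of these differences had an edgeR adjusted p of at most 0.00017. PIK3R1, FOXO1, TXNIP, HK2, DDIT4, CDKN1A and VEGFA were likewise called higher in AKTmyr against each of the 4 other lines. LDHA was not called against MekDD (log2 0.75, SE 0.31, edgeR adjusted p = 0.075) or ARPE19 (log2 0.33, SE 0.31, edgeR adjusted p = 0.45). In all, 907 genes were called higher than in each of the 4 other lines (6.67%) and 842 lower (6.19%).

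**Figure D4:**
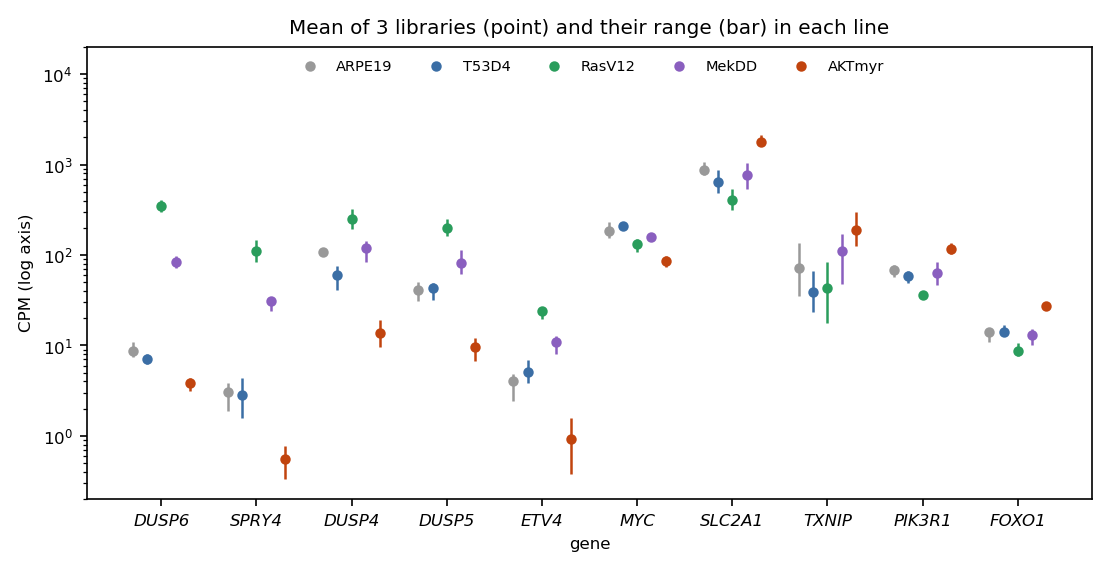
Mean CPM of 3 libraries (point) and their range (bar), on a log axis, for 6 ERK output genes and 4 PI3K or glucose genes in the 5 lines. AKTmyr is the lowest line for DUSP6, SPRY4, DUSP4, DUSP5, ETV4 and MYC, and the highest in mean for SLC2A1, TXNIP, PIK3R1 and FOXO1.

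MYC, the growth-promoting transcription factor, held 87.4, 97.2 and 73.6 CPM in AKTmyr and 233, 214 and 189 CPM in T53D4. The groups were apart and the fall was 1.30 (SE 0.13, edgeR adjusted p = 3.2e-05). Of 31 tested ribosome biogenesis genes and MYC targets, which serve the making of ribosomal RNA and its assembly, 23 fell and 1 rose (median -0.59). This list had 77.4% called, beside 34.8% of all genes, of which 17.9% fell. NOP16 fell by 1.01 (SE 0.20), from 19.7, 16.4 and 18.1 CPM to 6.49, 10.3 and 10.5 CPM, and RRP12 by 0.99 (SE 0.18). The abundant nucleolar proteins NPM1 and NCL fell by 0.58 (SE 0.18) and 0.61 (SE 0.18), calls that were lost without the replicate number (adjusted p = 0.083 and 0.12) and without AKTmyr replicate 1, T53D4 replicate 1 or T53D4 replicate 3. The NPM1 call was lost without AKTmyr replicate 2 or T53D4 replicate 2 as well, with adjusted p of 0.0511 to 0.124 over these fits. The exception was MYCL, a relative of MYC at 1 to 1.63 CPM in AKTmyr, which rose by 1.77 (SE 0.34). Leaving out AKTmyr replicate 1 took the count that fell to 12 and leaving out T53D4 replicate 1 took it to 13.

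Ribosomal protein genes fell by small amounts. Of 38 tested, 34 fell and 0 rose, 0 also by DESeq2 (median -0.40, all 38 estimates negative), with RPL8 at 1021, 1364 and 1140 CPM against 1897, 1796 and 1717 CPM (fell by 0.62, SE 0.12). The median was -0.55 within replicate number 1 and -0.33 within numbers 2 and 3. Called members made up 89.5% of the list, beside 34.8% of all genes, of which 17.9% fell. Fewer were called under other settings: 17 without the replicate number, 15 with the 2 lines alone, 21 without T53D4 replicate 1, 14 without AKTmyr replicate 1 and 5 without replicate 1 of every line. The translation factors EEF2 and PABPC1, encoded by messages that mTORC1 is known to regulate, fell by 0.55 (SE 0.11) and 0.60 (SE 0.11), the former not called without the replicate number (adjusted p = 0.076).

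**Figure D5:**
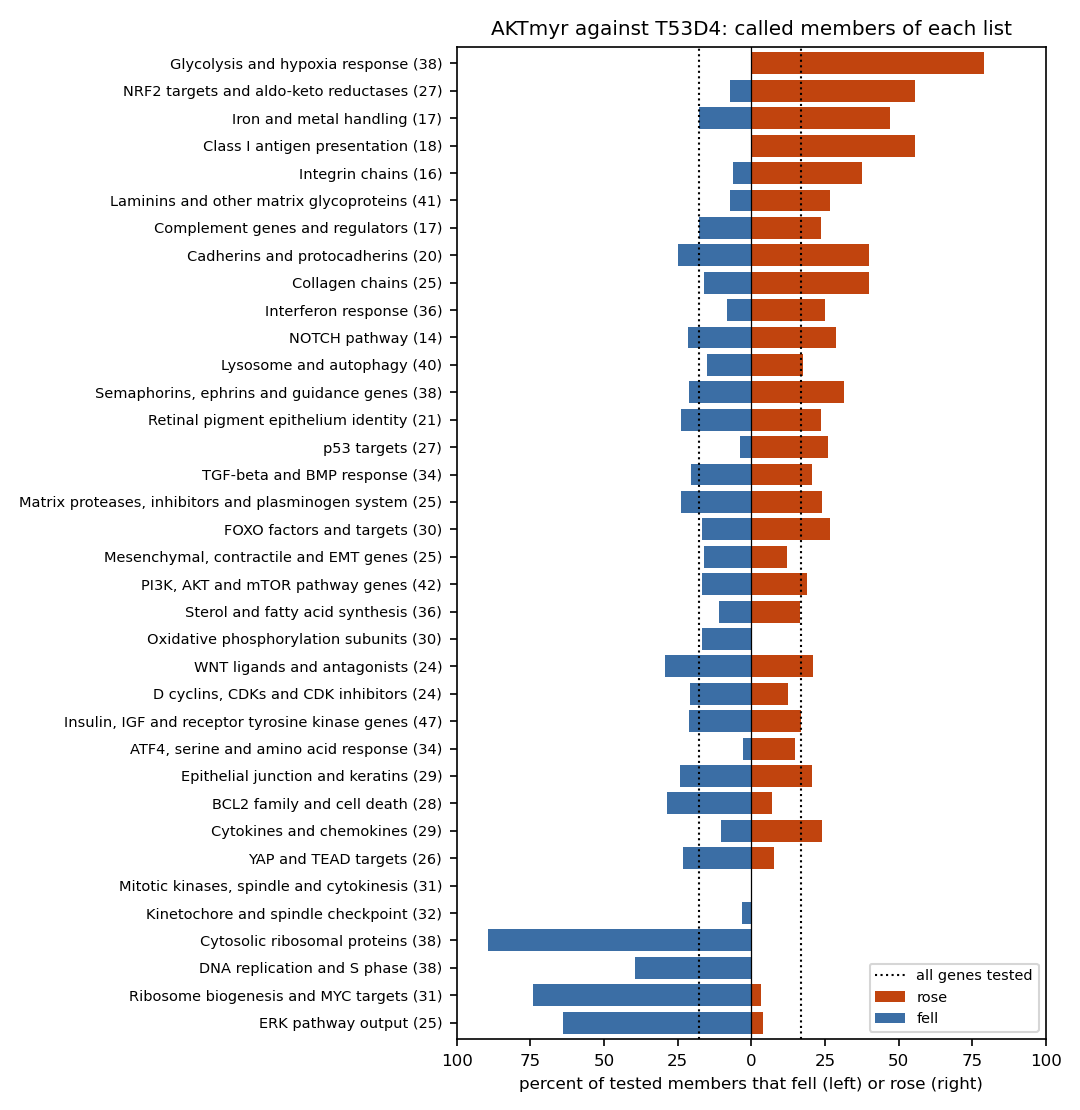
Percent of tested members that rose (right) or fell (left) in AKTmyr against T53D4, for each gene list with at least 14 tested members (number in parentheses), ordered by median log2 fold change. Dotted lines mark the 16.9% and 17.9% of all genes tested; glycolysis and hypoxia has no called fall, and ribosomal proteins have no called rise.

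Among cell cycle genes, CDKN1A, which encodes the CDK inhibitor p21, held 1398, 1027 and 623 CPM in AKTmyr and 216, 194 and 164 CPM in T53D4, a 5.17-fold rise (log2 2.37, SE 0.24, edgeR adjusted p = 4.3e-05). It is a p53 target, and of 27 tested p53 targets 7 rose and 1 fell (median 0.08), or 29.6% called beside 34.8% of all genes. RRM2B, a ribonucleotide reductase subunit, rose by 0.73 (SE 0.13) and MDM2, which degrades p53, was at 78.3, 77.4 and 79.9 CPM against 58.9, 49.9 and 77.5 CPM and was not called. The fall, in PLK3, was lost whenever any 1 of the 6 libraries was left out and without the replicate number (adjusted p = 0.12), and 4 p53 targets rose without T53D4 replicate 3 or AKTmyr replicate 1. CDKN1B, which encodes the inhibitor p27 and is a known FOXO target, overlapped at 159, 110 and 116 CPM against 103, 126.5 and 128 CPM and was not called.

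Of 38 DNA replication and S phase genes, 15 fell and 0 rose, 0 also by DESeq2 (median -0.51). The falls made up 39.5% of the list, beside 17.9% of all genes that fell and 34.8% called either way. Of the 38 estimates 1 was positive. CDT1, which licenses origins, fell by 1.01 (SE 0.16), from 56.9, 61.7 and 68.3 CPM to 23.3, 32 and 38.7 CPM, and MCM7, a helicase subunit, by 0.95 (SE 0.22). The count was unsteady: 3 fell without the replicate number, 4, 7 and 7 without T53D4 replicate 1, 2 or 3, and 3, 5 and 26 without AKTmyr replicate 1, 2 or 3. Among mitotic genes, the edgeR test called 1 of 32 kinetochore and checkpoint genes lower (CENPM, lost without the replicate number at an adjusted p of 0.116 and without any 1 library other than AKTmyr replicate 3) and 0 of 31 mitotic kinase and spindle genes (medians -0.28 and -0.27). At an unadjusted p under 0.05, 7 and 3 of them were lower. DESeq2 called 3 and 1 lower, the fit of the 2 lines alone 7 and 6, and the fit without AKTmyr replicate 3 called 7 and 2. BUB1, a checkpoint kinase, was at 116, 97.4 and 153 CPM against 117, 111.5 and 132 CPM. AURKB, the kinase of the chromosomal passenger complex, was at 33.6, 45.5 and 48.3 CPM against 64.3, 63.6 and 56.2 CPM, with an edgeR adjusted p of 0.052.

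Several matrix genes rose. MMP2, the gelatinase that cuts basement membrane collagen, stood at 470, 226 and 279 CPM in AKTmyr and 52, 33.2 and 22.9 CPM in T53D4, an 8.99-fold rise (log2 3.17, SE 0.28, edgeR adjusted p = 1.8e-05). NID2, a basement membrane linker, rose by 2.46 (SE 0.29) and TGFBI, an abundant matrix protein of the eye, by 1.49 (SE 0.22), at 6419, 4596 and 5806 CPM against 2412, 1557 and 2041 CPM. SPARC, a collagen-binding protein, rose by 1.45 (SE 0.25). None of these 4 genes overlapped between the lines. Over whole lists, 11 of 41 laminins and other matrix glycoproteins rose and 3 fell (34.1% called). Of 25 matrix proteases, inhibitors and plasminogen genes, 6 rose and 6 fell (48% called), beside 34.8% called among all genes. Without the replicate number these counts were 7 and 1, and 4 and 2.

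Of 25 collagen chains, 10 rose and 4 fell (median 0.26), with 5 and 3 without the replicate number. The share of chains called was 56%, beside 34.8% of all genes, of which 16.9% rose and 17.9% fell. COL5A1, a fibrillar chain, held 755, 226 and 154 CPM against 139, 19 and 21.2 CPM, and COL1A1 held 335, 54.1 and 13 CPM against 112, 4.32 and 2.29 CPM. In both lines replicate 1 was far above the other libraries, AKTmyr was higher within each number, and neither gene was called without the replicate number (adjusted p = 0.053 and 0.43). COL1A1 was also not called without T53D4 replicate 2 (adjusted p = 0.0506), and its lines overlapped. COL4A5, a basement membrane chain, rose by 1.39 (SE 0.20) with no overlap. ITGA5, the fibronectin receptor chain, rose by 1.24 (SE 0.25), and 6 of 16 integrin chains rose and 1 fell (median 0.47, 43.8% called). Without the replicate number 3 rose and 0 fell, and 3, 2 and 2 rose without T53D4 replicate 1, T53D4 replicate 3 and AKTmyr replicate 1.

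Cadherins and guidance genes changed in both directions. CDH18, a neural cadherin, had 13.4, 5.7 and 19.6 CPM in AKTmyr and 0.0342, 0.109 and 0.333 CPM in T53D4 (82.3-fold, log2 6.36, SE 0.46, edgeR adjusted p = 4.7e-06), and CDH6 rose by 4.61 (SE 0.48). CDH11, a mesenchymal cadherin, fell by 2.11 (SE 0.15), from 199, 154 and 163 CPM to 46.3, 43.4 and 29.9 CPM, and CDH13 by 4.78 (SE 0.36). NRP2, a co-receptor of semaphorins and VEGF, held 186, 184 and 113 CPM against 16.5, 13.4 and 13.1 CPM (log2 3.49, SE 0.25). UNC5B, a netrin receptor, held 133, 97.2 and 29.4 CPM against 2.26, 2.6 and 2.24 CPM (log2 5.03, SE 0.66). Of 20 cadherins 8 rose and 5 fell (65% called), and of 38 guidance genes 12 rose and 8 fell (52.6%), beside 34.8% of all genes. Without the replicate number these counts were 5 and 5, and 10 and 5.

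Among other large rises, ACTC1, the cardiac actin, went from 0.0685, 0.369 and 0.143 CPM to 21.2, 12.4 and 14.4 CPM (log2 6.13, SE 0.72, edgeR adjusted p = 0.00011). SPP1, the secreted protein osteopontin, went from 0.137, 2.19 and 2.48 CPM to 32.6, 38.7 and 58.1 CPM (log2 4.98, SE 0.56). KRT16, a stress keratin with near-identical copies, held 24.3, 9.36 and 3.46 CPM against 0.171, 0.304 and 0.381 CPM (log2 5.26, SE 0.77). None of these overlapped between the lines, which was a condition for the ranking of the largest rises, and KRT16 spread widely within AKTmyr.

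RAX, LHX2 and KIF1A were among the named genes with large falls. RAX, the retinal homeobox factor, had 3 reads over AKTmyr and 547 over T53D4, where it held 8.22, 4.64 and 4.43 CPM, a ratio of 201.5 (95% exact binomial interval 68.6 to 980). LHX2, a LIM homeobox factor required for eye development, held 1.3, 1.26 and 1.83 CPM in AKTmyr against 23.1, 26 and 33.3 CPM (fell by 4.25, SE 0.24, edgeR adjusted p = 9.1e-07). KIF1A, a motor of synaptic vesicle precursors, held 0.162, 0.11 and 0.0834 CPM against 35.4, 20.7 and 16.9 CPM (fell by 7.62, SE 0.25, edgeR adjusted p = 7.5e-09). In T53D4, replicate 1 was the highest library for RAX and KIF1A and the lowest for LHX2. The lines did not overlap for any of the 3 genes, which was a condition for the ranking of the largest falls.

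NPPB, the B-type natriuretic peptide, fell by 4.60 (SE 0.28), from 436, 119 and 123 CPM to 12.2, 6.85 and 5 CPM. HMGA1, an architectural chromatin protein of growing cells, fell by 2.11 (SE 0.39), from 891, 981 and 1302 CPM to 135, 203 and 416 CPM. LHX2 was also lower in AKTmyr than in ARPE19, RasV12 and MekDD, by 4.13 (SE 0.24), 4.31 (SE 0.24) and 4.73 (SE 0.24) on the log2 scale (edgeR adjusted p = 6.1e-07, 9.8e-08 and 1.3e-07). Of 21 pigment epithelium identity genes as a list, 5 rose and 5 fell (median 0.10), or 47.6% called beside 34.8% of all genes. These counts were 3 and 3 without the replicate number or AKTmyr replicate 1, 2 and 4 without T53D4 replicate 1, and 5 and 3 without T53D4 replicate 2 or AKTmyr replicate 2. SERPINF1, the anti-angiogenic factor that pigment epithelium secretes, fell by 1.88 (SE 0.22) and LRAT, an enzyme of the visual cycle, rose by 1.15 (SE 0.21).

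Antigen presentation, secreted signals and other pathways had smaller or divided changes. Of 18 class I presentation genes, 10 rose and 0 fell (median 0.49), or 55.6% called beside 34.8% of all genes. Among them were the peptide transporter gene TAP1, by 0.75 (SE 0.23), and the heavy chain gene HLA-C, by 0.75 (SE 0.21). Reads of HLA-C may be split with HLA-B. The count of rises was 3 without the replicate number, 6, 3 and 1 without T53D4 replicates 1, 2 and 3, and 1 and 2 without AKTmyr replicates 1 and 2. Both the HLA-C and the TAP1 call were lost without T53D4 replicate 3, AKTmyr replicate 1 or AKTmyr replicate 2 (adjusted p = 0.0605 to 0.111). TAP1 was also lost without T53D4 replicate 2. IL18, a cytokine of the inflammasome, fell by 2.38 (SE 0.24), from 103, 138 and 78.7 CPM to 27, 21.25 and 13.6 CPM, with no overlap. CXCL12, a chemokine, had 183 reads over AKTmyr and 3 over T53D4, a ratio of 55.2 (95% exact binomial interval 18.6 to 270).

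Developmental pathways were mixed. JAG1, a NOTCH ligand, held 52.5, 55 and 68.6 CPM in AKTmyr against 17.8, 18.3 and 14.5 CPM (log2 1.77, SE 0.18, edgeR adjusted p = 4.3e-05), and ID4, a repressor induced by BMP signals, rose by 3.07 (SE 0.51). BMP2 and BMP4, ligands of that pathway, fell by 1.23 (SE 0.18) and 1.45 (SE 0.31), as did SFRP1, a secreted WNT antagonist, by 2.06 (SE 0.25). Of 34 TGF-beta and BMP genes 7 rose and 7 fell, and of 24 WNT genes 5 rose and 7 fell, against 3 and 4, and 3 and 3, without the replicate number. These lists had 41.2% and 50% called, beside 34.8% of all genes. Leaving out 1 library took the TGF-beta and BMP rises to 3 (without AKTmyr replicate 1) or 4 (without AKTmyr replicate 2 or any T53D4 library) and the falls to 4 (without T53D4 replicate 1), and it took the WNT rises to 3 without T53D4 replicate 1 or 3 and to 2 without AKTmyr replicate 2. ANKRD1, a YAP target, fell by 2.28 (SE 0.41), and TFEB, a regulator of lysosomal genes that mTORC1 controls, rose by 1.29 (SE 0.19). Of 28 BCL2 family and cell death genes 2 rose and 8 fell, or 35.7% called beside 34.8% of all genes. Without the replicate number 2 rose and 3 fell. BCL2L1, which opposes apoptosis, fell by 0.73 (SE 0.11). BMF, which promotes it, rose by 1.61 (SE 0.50), a call lost without T53D4 replicate 1 or 3 or AKTmyr replicate 1 or 2 (adjusted p = 0.0549 to 0.105). HRK and BID, which also promote apoptosis, were called lower. Both calls were lost without the replicate number (edgeR adjusted p = 0.0786 and 0.183).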

How the data were processed

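The authors deposited raw counts of reads per gene for 15 libraries (5 lines, 3 each), which were used here, together with scaled and log tables that were not used. The tools named in the submitters' processing notes, without settings, are featureCounts 1.6.4 as a read counter, HISAT2 2.1.0 as an aligner, fastp 0.20.0, DESeq2 1.28.1, deepTools 3.2.0 and SAMtools 1.9, and the build is hg38. Gene positions are other values taken from the start and end columns of the protein-coding annotation the authors deposited. Of 15517 rows, 7 are constructs and were left out of the tested genes, and 9 have no symbol. Depth was 20.63 to 46.55 M reads on genes, and intervals on read counts cover counting error only.

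From the counts, CPM with trimmed-mean factors and the edgeR 4.0.16 quasi-likelihood test (limma 3.58.1, R 4.3.3) were computed over all 15 libraries, with line and replicate number as factors, 8 residual degrees of freedom, filterByExpr (minimum count 10, 13599 genes kept) and Benjamini-Hochberg adjustment at 0.05. The SE of a log2 difference was obtained as its absolute value divided by the square root of the F statistic of that test. Figures were drawn with matplotlib 3.10.9. The comparison was defined as paired by replicate number, and the labels do not say what a number shares. Same-numbered AKTmyr and T53D4 libraries deviated together from their line means (r = 0.48, 0.291 and 0.53, against at most 0.0339 for other numbers). Deviations from a line mean sum to 0, so positive values for equal numbers push the values for other numbers down. The contrast between them is therefore not independent support for the pairing. No replicates agreed within sampling noise. Fits were tested on simulated data.

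The alternatives were no replicate number, the 2 lines alone, DESeq2 1.42.0, its size factors in edgeR, no filter, a stricter filter, construct rows kept, gene and construct rows summed, and leaving out each library. Leaving out replicate 1 of every line was added after seeing the data. The members and lists were chosen with earlier results of these data known. Named genes were a set of 31 fixed by name, the 15 largest called rises and falls with at least 5 CPM and no overlap, up to 4 called members per list, 8 genes each way called against all 4 other lines, and 6 each way with the largest CPM difference. Other list members were named after their values were seen. Some genes that these choices select are not reported here.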

Additional observations from a re-analysis of the deposited data

Results flagged for a closer look

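Several genes were called one way in AKTmyr and the other way in RasV12 or MekDD, each against the same T53D4 libraries. The log2 difference is AKTmyr minus the other line, with its edgeR adjusted p in parentheses. The search covered the genes fixed by name and the largest rises and falls. A gene was listed only if that difference was called too, so the adjusted p values are no separate support. Against RasV12 the log2 difference was 1.71 for PIK3R1 (3e-05), 1.66 for FOXO1 (9.06e-06) and 2.16 for SLC2A1 (2.36e-07). For the ERK feedback genes it was -6.53 for DUSP6 and -7.61 for SPRY4 against RasV12 (4.85e-09 for each), and -4.48 and -5.8 against MekDD (1.17e-07 and 3.56e-08).

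Other genes with such opposite changes were ALOX5 (7.74, 4.37e-07), TENM2 (8.52, 3.84e-07) and B3GAT1 (-5.06, 7.93e-08) against RasV12. GSTA1 differed by 12.8 from RasV12, which had no read of it, so that this fitted value depends on the prior count and is no bound, and by 9.67 from MekDD (1.34e-07).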

How the results depend on the processing

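Dropping the replicate block moved the counts to 1347 genes higher and 1391 lower, and 2737 of those 2738 calls were among the 4738 with the pairing. Leaving out 1 library gave 1600 to 2217 genes higher and 1446 to 2289 lower, the last count lowest without AKTmyr replicate 1, and leaving out replicate 1 of every line gave 1697 and 1470. DESeq2 gave 2614 and 2488, its size factors in edgeR 2431 and 2275, the 2 lines alone 2052 and 1869, no filter 2434 and 2301, and a stricter filter 1941 and 2100. Over 206 named genes and 2834 gene and setting pairs, 2571 kept direction and side of the threshold, 238 lost the call, 8 gained it and 17 changed sign; dropping the block lost 44 calls and changed no sign. None of the genes that changed sign was called with all libraries. Over the fits that left out 1 library, AKT2 ran from -0.1074 to 0.02992, BUB1 ran from -0.1527 to 0.1287, CDKN1B ran from -0.06835 to 0.2398, ERBB3 ran from -0.533 to 0.4013, IGF1R ran from -0.2619 to 0.06175, IRS1 ran from -0.3432 to 0.00737, IRS2 ran from -0.3737 to 0.05388 and PIK3CA ran from -0.1112 to 0.06199. Without replicate 1 of every line, AKT2 at 0.04363, CDKN1B at -0.1523, IRS2 at 0.09695 and MAP2K1 at 0.01178 had changed sign. The causes were not tested. Genes with few reads, such as MT1M (1 read over AKTmyr), are limited by depth.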

Other observations

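Some chromosome stretches held called genes of mostly 1 direction. Of 77 tested genes between 139727725 and 145066685 on chromosome 8 (hg38), 3 rose and 35 fell, 45.5% against 17.9% of all genes, with a median log2 difference of -0.30. Of 113 tested genes between 270863 and 25696853 on chromosome 20, 44 rose (38.9% against 16.9%) and 12 fell, with a median of 0.22, while 20 of 239 rose and 46 fell on the rest of that chromosome. The copy number of these stretches was not tested. RPL8, described above, lies in the stretch of chromosome 8, and MYC lies outside it. These are descriptions of 1 line against 1 line.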
